A study of Mus musculus with 5 samples.

Results

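The Hoxa cluster was examined gene by gene, from Hoxa2 to Hoxa13, in H3K27me3 peak lists of mouse embryonic fibroblasts (MEFs). The members were 10 protein-coding genes taken by name from the GENCODE vM1 annotation of mm9, of 22350 protein-coding genes on chromosomes 1 to 19 and X. H3K27me3, trimethylated lysine 27 of histone H3, was measured by chromatin immunoprecipitation and sequencing (ChIP-Seq) in 5 lines with 1 library each, and peak lists of 3 lines were used. The K27R, K27M and EZHIP lines were MEFs with a floxed Eed allele transduced with lentiviruses expressing H3.3K27R, H3.3K27M or human EZHIP, respectively, from an EF1a promoter under puromycin selection. The parental cells with floxed Eed and the Eed deletion line, a single clone, were not analysed here. K27R served as the reference, because arginine at this residue was introduced with the same vector. The lists give positions of peaks and no read counts or scores, so that depth was unknown, and with 1 library per line no difference could be set against replicate spread.

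Polycomb Repressive Complex 2 (PRC2) writes H3K27me3, starts at CpG islands and spreads along the chromatin by binding its own product. Hox genes encode homeodomain transcription factors that give cells their position along the body and limb axes. Their order on the chromosome follows their order of expression from head to tail, and Polycomb keeps the genes that lie beyond a cell's own position silent. H3 K27M, the histone mutant of diffuse midline glioma, and EZHIP, a protein of PFA ependymoma, both inhibit PRC2. The comparison asked which Hoxa genes were in H3K27me3 peaks in K27R cells, and where the peaks began and ended in cells with an inhibitor.

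Of the sequences that carry the result, the 200 bases before a gene's start are shown for 1 gene outside the peaks of every list (Hoxa5), 1 gene whose 5′-most start was in K27R peaks only (Hoxa7) and 1 gene in peaks of every list (Hoxa13). They are read from mm9 on the minus strand, the strand of these genes, with CG dinucleotides in capitals. The windows are chr6:52154587-52154786 for Hoxa5, chr6:52171854-52172053 for Hoxa7 and chr6:52210875-52211074 for Hoxa13.
Hoxa5: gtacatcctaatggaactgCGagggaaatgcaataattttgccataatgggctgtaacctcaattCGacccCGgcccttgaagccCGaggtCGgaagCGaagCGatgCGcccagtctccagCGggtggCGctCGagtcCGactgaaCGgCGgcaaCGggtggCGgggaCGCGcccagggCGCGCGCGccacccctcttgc
Hoxa7: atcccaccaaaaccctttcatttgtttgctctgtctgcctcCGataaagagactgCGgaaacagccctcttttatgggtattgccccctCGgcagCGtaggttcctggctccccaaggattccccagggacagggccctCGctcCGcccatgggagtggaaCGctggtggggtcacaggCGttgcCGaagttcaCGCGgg
Hoxa13: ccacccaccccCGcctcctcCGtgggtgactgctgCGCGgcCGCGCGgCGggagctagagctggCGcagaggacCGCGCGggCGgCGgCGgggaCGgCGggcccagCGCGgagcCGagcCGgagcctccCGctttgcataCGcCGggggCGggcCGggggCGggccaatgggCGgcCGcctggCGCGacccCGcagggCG
The Hoxa5 window held 22 CG dinucleotides, the Hoxa7 window 11 and the Hoxa13 window 33, where the median over all protein-coding genes was 7. A CG-rich stretch before the start was therefore found both outside the peaks (Hoxa5) and inside them (Hoxa13). The other genes in peaks of every list had fewer, with 2 at Hoxa9, 5 at Hoxa10 and 10 at Hoxa11. The other genes with starts outside every list had 2 at Hoxa2, 9 at Hoxa3, 32 at Hoxa4 and 9 at Hoxa6. Each window precedes the 5′-most annotated start of its gene. Other starts of Hoxa6, Hoxa9 and Hoxa10 lay in CpG islands.

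The left edge of the main residual peak fell between Hoxa7 and Hoxa9 in both inhibitor lists as deposited, 1 bin of 200 bp apart. The bins in which the peaks began are shown from the plus strand, chr6:52172401-52172600 for EZHIP and chr6:52172601-52172800 for K27M, again with CG in capitals.
EZHIP: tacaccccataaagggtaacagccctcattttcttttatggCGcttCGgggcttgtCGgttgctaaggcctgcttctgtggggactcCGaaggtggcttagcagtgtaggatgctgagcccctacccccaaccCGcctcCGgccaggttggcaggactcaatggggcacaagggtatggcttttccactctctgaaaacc
K27M: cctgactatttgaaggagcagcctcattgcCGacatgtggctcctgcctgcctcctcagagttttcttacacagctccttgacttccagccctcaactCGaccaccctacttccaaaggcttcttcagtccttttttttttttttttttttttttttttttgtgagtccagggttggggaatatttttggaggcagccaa
These bins lay in intergenic sequence by the annotation and held 6 and 2 CG dinucleotides.

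Across the series, the K27R list held 12845 peaks over 582.1 Mb, the K27M list 3736 peaks over 51.0 Mb and the EZHIP list 4992 peaks over 36.5 Mb. Among cell type markers, start sites of 12 of 13 fibroblast genes lay outside K27R peaks. The exception was Pdgfra, a growth factor receptor of mesenchyme, whose start was in a peak of every list. Of 16 genes of neural, endodermal or epithelial, and blood cells that were found in the annotation, 15 had their start in K27R peaks. Over all protein-coding genes, 30.1% had their start in K27R peaks. Since most genes lay outside these peaks, the fibroblast count alone does not identify the cell type. Expression was not measured in these libraries.

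Start sites of the cluster were split by position. In K27R, the start sites of 5 of 10 Hoxa genes lay in peaks (Hoxa7, Hoxa9, Hoxa10, Hoxa11 and Hoxa13), where 30.1% of all protein-coding genes did. In K27M there were 4 of 10, against 9.02% of all genes, and in EZHIP 4 of 10, against 7.73%. The EZHIP count was above that of K27R under other rules, at 7 when peaks up to 10000 bp apart were merged and at 6 when any base within 1000 bp of the start was counted, with K27R at 5 under both. With the lists as deposited, the genes were the same in both inhibitor lists, Hoxa9, Hoxa10, Hoxa11 and Hoxa13. Of the 5 start sites in K27R peaks, 4 were thus kept with either inhibitor in the lists as deposited, where K27M peaks kept 29.9% and EZHIP peaks 25.6% of the 6735 genes with a start in K27R peaks. Among the 2376 of those genes whose start also lay in a CpG island, the shares were 52.1% and 44.0%. Of the 5 Hoxa genes, only Hoxa7, Hoxa11 and Hoxa13 had their 5′-most start in an island. Other annotated starts of Hoxa9 (52176150) and Hoxa10 (52184938) lay in islands too. Hoxa11 and Hoxa13 were kept with either inhibitor and Hoxa7 with neither, by the 5′-most start in the lists as deposited. At 4 of its 5 annotated starts, Hoxa7 was in an EZHIP peak. The 5 Hoxa genes share a single K27R region, so that they are not independent of each other and no test was made. The lists give no peak height, and a lower H3K27me3 level within a kept peak would not be seen in them.

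**Figure D1:**
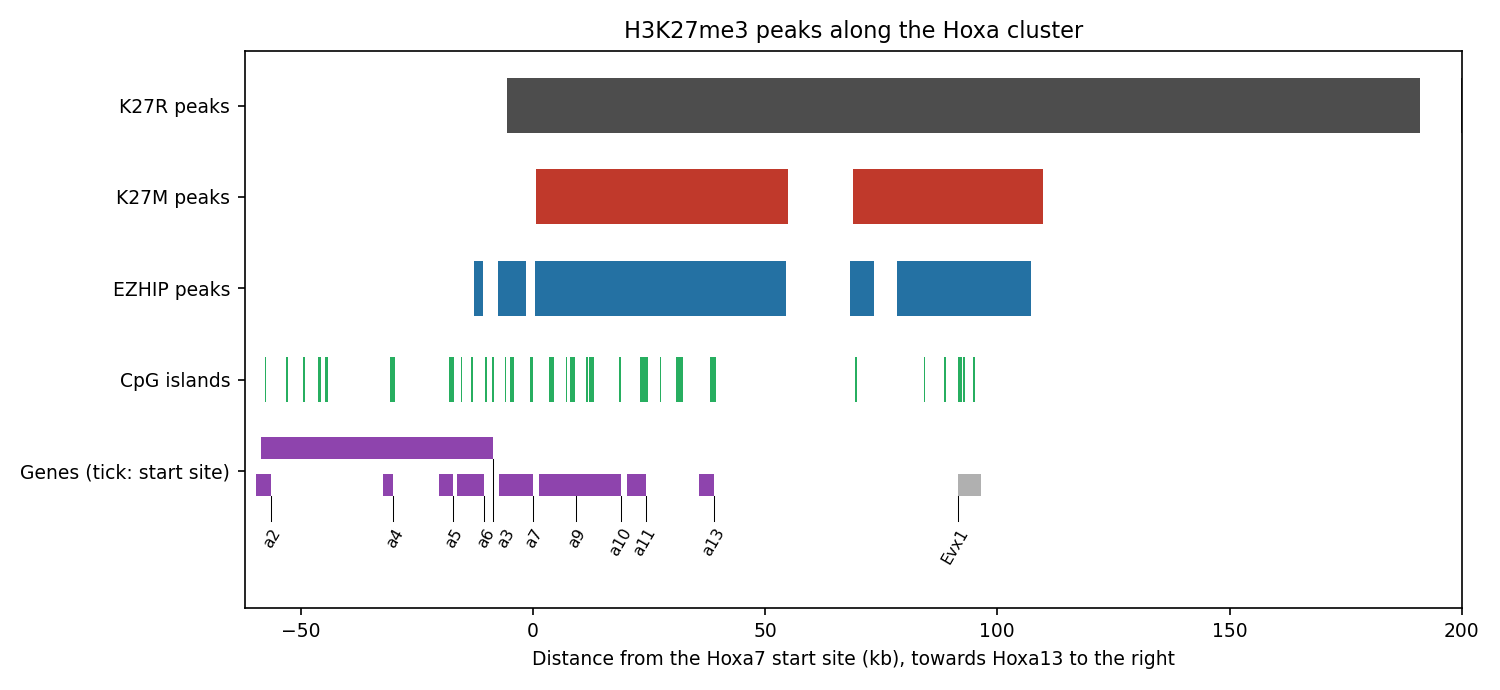
Map of the Hoxa cluster, with the x axis in kb from the Hoxa7 start site and Hoxa13 towards the right; rows show peaks of each list, CpG islands, and genes (listed Hoxa genes in purple with the a-number, Evx1 in grey, ticks at start sites). The K27R region begins 5.652 kb to the left of the Hoxa7 start, the main K27M and EZHIP peaks begin 0.748 and 0.548 kb to its right, and both inhibitor lists share a gap of 13.4 kb between Hoxa13 and Evx1.

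The genes at the Hoxa2 end were largely free of peaks. Hoxa2, which patterns the hindbrain and the branchial arches, began 50.8 kb from the nearest K27R peak, 57.2 kb from the nearest K27M peak and 43.8 kb from the nearest EZHIP peak. For Hoxa4 these distances were 24.4, 30.8 and 17.4 kb. For Hoxa5, a gene needed for lung and cervical skeleton development, they were 11.6, 18.0 and 4.62 kb. No base of Hoxa2, Hoxa4 or Hoxa5 lay in a peak of any list. This end of the cluster lay in a long stretch without peaks, since the next peak before those over the cluster was 366.8 kb away for K27R, 594.6 kb for EZHIP and 788.2 kb for K27M.

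Hoxa3, required for thymus and parathyroid development, is annotated under 2 gene identifiers, ENSMUSG00000059723.6 and ENSMUSG00000079560.5, and was counted once. The annotated gene runs across Hoxa4, Hoxa5 and Hoxa6, and its start site at 52163338 lies between Hoxa6 and Hoxa7. This start was 2.86 kb from the K27R region, 9.26 kb from the K27M peak and 1.06 kb from an EZHIP peak. It lay outside the peaks of every list, as did the other 5 annotated starts of the gene.

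Hoxa6 differed between the lists. An EZHIP peak of 2.0 kb (52159201 to 52161200) lay inside the gene, with its nearer edge 155 bp from the start site at 52161355. It covered 33.7% of the Hoxa6 body, while the K27R and K27M peaks covered none of it. Over the exons alone the EZHIP value was 6.31%. The coding transcript of Hoxa6 starts at 52158721, outside the peak, which lay within a processed transcript of the gene. The peak also fell in the introns of Hoxa3 and of 2700086A05Rik, a non-coding RNA from the opposite strand. It was 1 of only 8 EZHIP peaks, of 4992, that overlapped no K27R region, and the K27R region began 5.00 kb further on.

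Hoxa7, a gene of the thoracic region, lay where the lists parted. The K27R region began within an intron of the annotated gene and covered 76.8% of the gene body, including the start site at 52171853. The K27M list had no peak in the gene, and its nearest peak began 0.748 kb upstream of the start. The EZHIP list covered 80.3% of the body by a peak of 6.0 kb (52164401 to 52170400) but left out the start site, and its next peak began 0.548 kb upstream. Over the exons alone, the K27R list covered 46.5%, the EZHIP list 89.3% and the K27M list 0%. This 6.0 kb peak reached 1.80 kb further towards Hoxa6 than the K27R region did. Hoxa7 has 5 annotated starts. All 5 were in the K27R region, 4 were in the EZHIP peak and none was in a K27M peak. The RefSeq start of Hoxa7, which matched mm9 at 52168572, was in the K27R and EZHIP peaks and 4.03 kb from the K27M peak. Whether the Hoxa7 start is counted as kept in EZHIP therefore rests on the annotated start that is used.

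The genes from Hoxa9 to Hoxa13 were in peaks over their whole length in every list. These genes act in the posterior body axis and the limbs. Hoxa9, also a regulator of blood stem cells, had its start 14.9 kb inside the K27R region, 8.49 kb inside the K27M peak and 8.69 kb inside the EZHIP peak, as the distance to the nearest edge. For Hoxa10, which patterns the lumbar skeleton and the uterus, the distances were 24.7, 18.3 and 18.5 kb. For Hoxa11, a gene of the kidney and forearm, they were 30.01, 23.6 and 23.8 kb. Hoxa13, which acts in digits and the urogenital tract, was nearest to the other edge of the residual peaks, 44.7, 15.9 and 15.5 kb inside. All 14 annotated starts of these genes were in peaks of each list. None of these start sites was within 1000 bp of an edge. The distances are for the 5′-most start of each gene. Other starts of Hoxa9, among them the RefSeq start at 52177369, lay nearer the left edge.

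**Figure D2:**
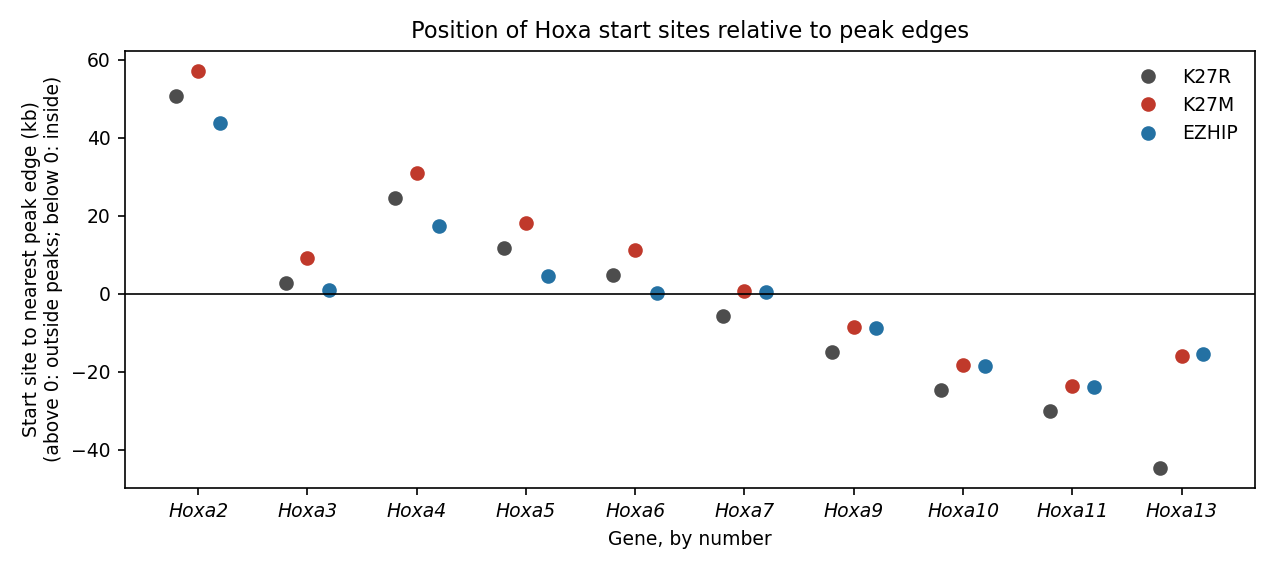
Distance in kb from the 5′-most start site of each Hoxa gene to the nearest peak edge in the K27R, K27M and EZHIP lists. Points above 0 are start sites outside peaks, and those below 0 lie inside. Hoxa7 is below 0 in K27R and above it by 0.748 kb in K27M and 0.548 kb in EZHIP, whereas Hoxa9 to Hoxa13 are at least 8.49 kb inside the peaks of every list.

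Peak edges were then followed along the cluster. The K27R list had a single region of 196.6 kb (chromosome 6, 52166201 to 52362800) that ran from Hoxa7 past Evx1, a homeobox gene at the end of the cluster. The K27M list had 2 peaks within it, of 54.2 kb (52172601 to 52226800) and 40.8 kb (52240801 to 52281600). The EZHIP list had peaks of 54.0 kb (52172401 to 52226400), 5.2 kb (52240201 to 52245400) and 29.0 kb (52250201 to 52279200), in addition to the peaks at Hoxa6 and Hoxa7. The 54.2 kb and 54.0 kb peaks, over Hoxa9 to Hoxa13, shared 53.8 kb, or 98.9% of their union.

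In the lists as deposited, the edges of these main peaks differed by 200 bp on the Hoxa7 side and 400 bp beyond Hoxa13. Of the 2540 K27M peaks that shared a base with an EZHIP peak, 8.5% had both edges within 400 bp of those of the same EZHIP peak, and the median distance to the nearest EZHIP edge was 1400 bp for starts and for ends. The edges around Evx1 were farther apart, by 600 bp and 2400 bp. Relative to the K27R region, the main peak began 6.4 kb further in with K27M and 6.2 kb further in with EZHIP. The EZHIP value rests on the gap of 2.0 kb between its main peak and its Hoxa7 peak. With peaks up to 10000 bp apart merged, the EZHIP peak began at 52159201, before the K27R region at 52166201. The K27M peak still began at 52172601, so the near agreement of the left edges was then lost.

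The main peaks were wide for their lists. The K27R region was as wide as the top 4.37% of K27R peaks. The K27M peak of 54.2 kb was among the widest 3.37% of K27M peaks, and the EZHIP peak of 54.0 kb among the widest 0.681% of EZHIP peaks, 34th of 4992. The other Hox clusters had wider ones in both lists, with a widest K27M peak of 154.6 kb over Hoxb, 116.8 kb over Hoxc and 61.8 kb over Hoxd. The widest EZHIP peaks there were 63.0, 105.8 and 56.6 kb. K27M peaks covered 95.0 kb of the K27R region (48.3%), where the median over the 2117 regions with a K27M peak was 15.2% and 14.3% of them were covered as much or more. EZHIP peaks covered 92.4 kb (47.0%), where the median over 2180 regions was 11.4% and 7.89% were covered as much or more.

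CpG islands were found in both parts of the cluster. By the 5′-most start, 6 of the 10 Hoxa genes began in an island, where 46.0% of all protein-coding genes did. Between Hoxa2 and Hoxa13 there were 24 islands, of which 12 overlapped K27R peaks, 10 K27M peaks and 12 EZHIP peaks. Over the whole genome these shares were 25.2, 11.4 and 9.65% of 27078 islands. The 9 islands between Hoxa2 and the Hoxa6 start, among them one of 1173 bp over the Hoxa4 start and one of 1098 bp over the Hoxa5 start, were in no peak of any list. A further 2 islands between the starts of Hoxa6 and Hoxa7, the first of 209 bp and the other of 252 bp over the Hoxa3 start, were in no peak either. The 10 islands between Hoxa9 and Hoxa13 were in peaks of every list. At Hoxa7, an island of 904 bp was in K27R and EZHIP peaks, an island of 563 bp over the start site was in K27R peaks only, and an island of 263 bp was in an EZHIP peak only.

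The parts of the K27R region that were lost held few islands. Of the 18 islands in the 196.6 kb region, 16 overlapped K27M peaks and 17 EZHIP peaks, where over all 6823 islands in K27R peaks 45.2% and 38.2% did. The gap of 13.4 kb that both inhibitor lists left between Hoxa13 and Evx1 (52226801 to 52240200) held no island and no unsequenced base, and the K27R region covered all of it. Beyond the last island, in Evx1, the K27R region went on for 95.6 kb. The K27M peak ended 14.4 kb and the EZHIP peak 12.04 kb past this island, which left 81.2 kb and 83.6 kb of the region without a peak.

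Cover of gene bodies gave the same genes as start sites in K27R and K27M, and added Hoxa3, Hoxa6 and Hoxa7 in EZHIP. From Hoxa2 to Hoxa13 the cluster spans 98.5 kb, of which K27R peaks covered 45.3%, K27M peaks 38.8% and EZHIP peaks 47.2%. In each list 4 genes were covered over their whole length, where K27R peaks did so for 20.1% of all protein-coding genes, K27M peaks for 2.78% and EZHIP peaks for 1.82%. Counting any base of the gene body, K27R peaks touched 5 of 10 genes (36.1% of all genes), K27M peaks 4 (11.5%) and EZHIP peaks 7 (10.6%). The EZHIP peaks thus touched Hoxa3 (4.002% of its length, all of it intronic) and Hoxa6 in addition to the genes touched in K27R. In the 49.0 kb from Hoxa2 to the Hoxa6 start, the 2.0 kb EZHIP peak was the only one.

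**Figure D3:**
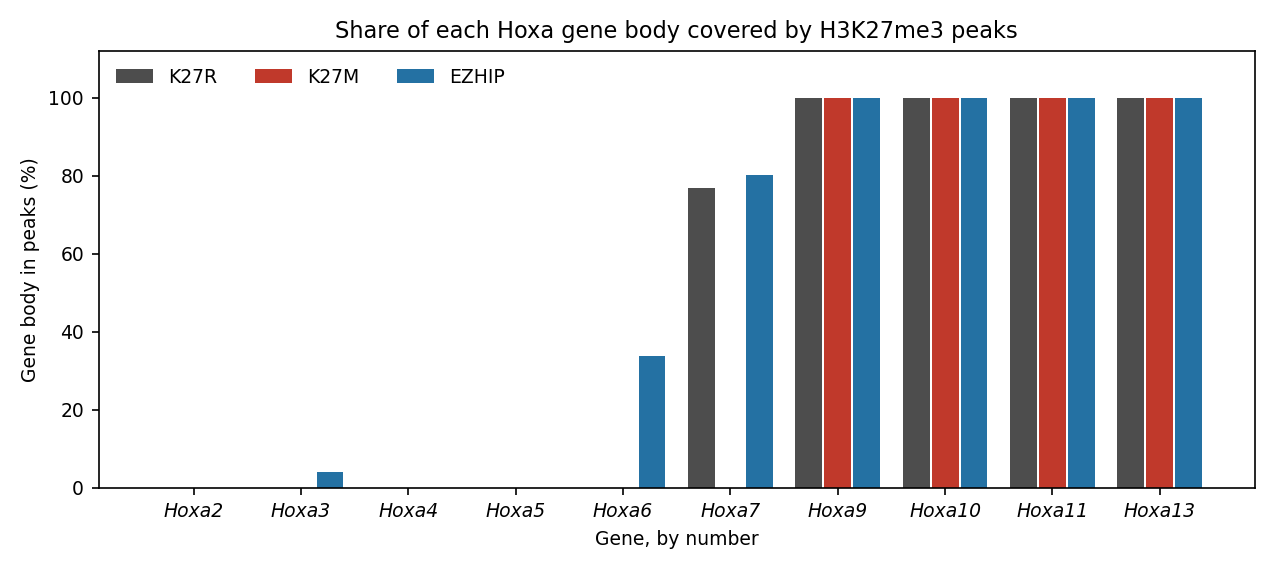
Percent of each Hoxa gene body covered by peaks in the K27R, K27M and EZHIP lists, with genes along the x axis by number. Hoxa9 to Hoxa13 are at 100% in every list, Hoxa7 has 76.8% with K27R, 80.3% with EZHIP and 0% with K27M, and Hoxa6 has cover (33.7%) in EZHIP alone.

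Non-coding genes of the cluster followed their coding neighbours. Hoxa11as, the antisense RNA at Hoxa11, and Mir196b, a microRNA gene between Hoxa9 and Hoxa10 that lies within the annotated Hoxa9 gene, were in peaks of every list. The microRNA is shown because its family is known to repress messages of other Hox genes. Its mature sequences by RefSeq (GRCm38.p6) are given with the seed, bases 2 to 8, in capitals.
mmu-miR-196b-5p: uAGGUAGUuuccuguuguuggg
mmu-miR-196b-3p: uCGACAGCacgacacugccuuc
Gm15050 and 5730446D14Rik, which lie within the Hoxa3 span, had no base in any list. EZHIP peaks covered 6.71% of 2700086A05Rik and the other lists none of it.

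Of the flanking genes looked up, Evx1 was covered over its whole length in K27R, K27M and EZHIP. Skap2, on the Hoxa2 side, and Hibadh, beyond Evx1, had start sites outside the peaks of every list. The Hibadh start was only 0.618 kb from the nearest K27R peak, but 308.8 kb from K27M and 311.2 kb from EZHIP peaks. The Skap2 start was 163.1 kb from the nearest K27R peak.

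The other Hox clusters were set beside Hoxa by paralogue group, the number that genes of the same descent share. In groups 9 to 13, all 4 Hoxa, 2 Hoxb, 5 Hoxc and 5 Hoxd start sites were in peaks of each of the 3 lists. In groups 1 to 6, of which Hoxa2 to Hoxa6 were counted for Hoxa, K27R peaks held 0 of 5 Hoxa starts, 2 of 6 Hoxb starts, 3 of 3 Hoxc starts and 3 of 3 Hoxd starts. K27M peaks held 0, 1, 1 and 1 of these, and EZHIP peaks 0, 0, 1 and 2. Hoxb7, the paralogue of Hoxa7, was in K27R and K27M peaks and 0.371 kb outside the nearest EZHIP peak. Hoxd8 was in K27R and EZHIP peaks and 2.87 kb outside the nearest K27M peak. With few genes per cluster that share regions, the difference between clusters was not tested.

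**Figure D4:**
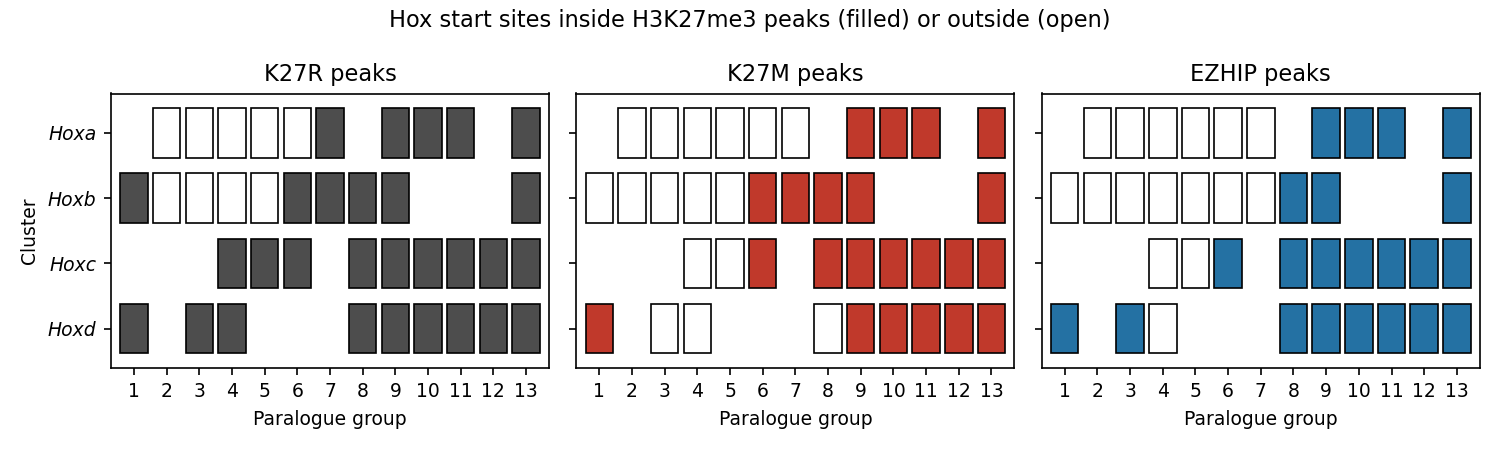
Start sites of the Hoxa, Hoxb, Hoxc and Hoxd genes by paralogue group (x axis), filled where the start lies in a peak of the K27R, K27M or EZHIP list and open where it does not. Groups 9 to 13 are filled in every list and cluster where a gene exists, and Hoxa groups 2 to 6 are open in every list.

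Genes that act with or on Hox genes were looked up as a list of 18. Of these, 6 had a start site in K27R peaks, 4 in K27M peaks and 4 in EZHIP peaks, where the shares of all protein-coding genes were 30.1, 9.02 and 7.73%. The K27R count was thus near that of all genes. Among 3 transcription factors that regulate Hox clusters, Cdx2 and Egr2 were in peaks of every list and Cdx1 in none. Among 9 cofactors that bind DNA together with Hox proteins (the Meis, Pbx and Pknox genes), only Meis3 was in a K27R peak and none was in a K27M or EZHIP peak. Of the retinoic acid genes, Aldh1a2 and Cyp26a1, which make and degrade the ligand, were in peaks of every list, Cyp26b1 was in K27R peaks only, and the receptors Rara, Rarb and Rarg were in none.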

How the data were processed

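Reads of each H3K27me3 library were aligned by the authors with bowtie1 to mm9 and to the genome of a spike-in species, and broad peaks were called with MOSAiCS-HMM. The submitters' processing notes name Bowtie 1.0.0 and deepTools. Each deposited list gives chromosome, start and end of every peak, with no score, on a grid of 200 bp bins, from 1 library without pooling. The study's methods give a single maximum gap of 10000 bp for joining neighbours. In the deposited lists the shortest gap was 0 bp for K27R, 1200 bp for EZHIP and 5200 bp for K27M, so that the lists do not follow that setting and may come from another run of the caller. This affects where 1 peak counts as several, and merging at 10000 bp was an alternative.

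Groups were taken from sample titles. Positions are printed counting from 1. Peaks of every list ended within the mm9 (NCBIM37) chromosomes, and GENCODE vM1 and the mm9 sequence were used without conversion. A start site is the 5′ end of a gene, and it was called in a peak when at least 1 bp overlapped. CpG islands were found in the sequence by scoring 17 for each CG and -1 for other bases, and were kept when longer than 200 bp, with G+C of 50% or more and a ratio of observed to expected CG above 0.6. RefSeq promoter sequences of 9 of the 10 genes, without Hoxa4, gave alternative start sites. Each sequence matched chromosome 6 exactly at a single place, and those of Hoxa10 gave starts at 52190853 and 52184938.

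The named genes were all 10 members, their neighbours, the other Hox clusters and fixed lists of Hox regulators and cell type markers. A few genes of these lists are not reported here. The members and lists were chosen with earlier results of these data known. No p-value was computed, since each group had 1 library. Interval and island routines were checked on simulated data. Alternatives were minimum widths, merging of neighbours, other overlap rules and other start sites. Python 3.11.15, numpy 2.4.6, pandas 2.3.3 and matplotlib 3.10.9 were used.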

Additional observations from a re-analysis of the deposited data

Results flagged for a closer look

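At Hoxa7, cover of the gene body moved in opposite directions with the 2 inhibitors. K27R peaks covered 76.8% of it, K27M peaks 0% and EZHIP peaks 80.3%. The rise with EZHIP was small on a grid of 200 bp bins, from 5653 bp in K27R to 5911 bp. Each line had 1 library, and the difference was not tested. Over the exons alone the values were 46.5% for K27R, 0% for K27M and 89.3% for EZHIP. In the EZHIP list, cover of the gene rose to 100% once neighbours within 10000 bp were joined.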

How the results depend on the processing

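The K27R count of 5 Hoxa start sites held under every alternative, and the K27M count was 4 under all but 1, an overlap within 1000 bp of the start, which gave 5 and so a K27R minus K27M difference of 0. The EZHIP count of 4 start sites rose to 7 when peaks up to 10000 bp apart were merged, when those up to 5000 bp apart were merged (chosen after the data were examined) and when any base of the gene body was counted. The K27R minus EZHIP difference, 1 as deposited, was then -2. It was -1 for an overlap within 1000 bp of the start, and 0 with any annotated transcript start or with RefSeq start sites, the latter chosen after the data were examined. Merging joined the EZHIP peaks at Hoxa6, Hoxa7 and Hoxa9 to Hoxa13 into 1 peak of 67.2 kb, which took in the start sites of Hoxa3, Hoxa6 and Hoxa7, and raised EZHIP cover of the span to 52.4%. The left edge of the EZHIP peak thereby moved to 52159201, while the K27M peak kept its left edge at 52172601. A minimum width of 5000 bp removed the 2.0 kb EZHIP peak, and with it the cover of Hoxa3 and Hoxa6. Restricted to islands of at least 500 bp, the span held 13 islands, of which 8 were in EZHIP peaks, in place of 12 of 24. Other island counts of the span, the widest peaks and counts over all protein-coding genes moved by less than 1.5 times under their alternatives. Start sites of Hoxa9, Hoxa10, Hoxa11 and Hoxa13 lay in peaks, with all bases within 1000 bp, in every list. No paired analysis was possible because each group had 1 library. No replicate could be left out for the same reason. Depth was unknown.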
